A study of Mus musculus with 8 samples.

Results

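The genes examined here are 8 genes of oculomotor and cholinergic neurons, followed through dopaminergic neurons sorted from the ventral midbrain of the mouse: Isl1, Isl2, Phox2a, Mnx1, Tbx20, Chat, Slc18a3 and Slc5a7. They were chosen by name, and every probe whose gene symbol in the deposited annotation is one of these names was kept, which gave 10 of 55681 non-control probes, 3 of them for Tbx20, and 8 of 24088 named genes. The embryos were at day E14.5 and carried Pitx3(gfp/+), that is 1 Gfp allele at the locus of Pitx3, a homeobox gene that marks midbrain dopaminergic neurons. The samples were 4 rostral and 4 caudal pools of Gfp-positive cells, each from 5 to 7 embryos of interleaved litters. RNA of each pool, labelled with Cy3, shared a 2-colour Agilent array with Cy5-labelled RNA of 1 common pool of Gfp-negative cells. That reference came from the same dissections, so its cells carried the same Gfp allele, and dyes were never swapped. The Gfp-negative pool holds whatever other cells the dissected piece contained, and the labels do not give its makeup. In such bulk samples, fewer cells of a type and less RNA per cell cannot be told apart.

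Oculomotor and trochlear neurons are the cholinergic motor neurons that move the eye, and they lie close to the dopaminergic neurons in the ventral midbrain. Phox2a is a homeobox gene required for these nuclei in the mouse. Isl1 and Isl2 are paired LIM homeobox genes of motor neurons, and Isl1 is also used by hypothalamic, striatal and sensory neurons. Mnx1 is a homeobox gene of spinal motor neurons and pancreas, and Tbx20 a T-box gene of heart and cranial motor neurons. Acetylcholine is made by choline acetyltransferase (Chat), loaded into vesicles by the vesicular acetylcholine transporter (Slc18a3), and its choline is taken back up by the high-affinity choline transporter (Slc5a7). Slc18a3 starts downstream of the start of Chat on the same strand of chromosome 14, so that both belong to 1 cholinergic locus.

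The 250 bases before the RefSeq start (GRCm38.p6) are shown for Isl1, which differed between the parts of the midbrain, for its paralog Isl2, which was lowest against the reference, and for Slc18a3, whose ratios spread widely between pools. The Isl1 window is chr13:116309689-116309938 on the minus strand, that of Isl2 chr9:55540899-55541148 on the plus strand, and that of Slc18a3 chr14:32464851-32465100 on the minus strand. Capitals mark the E-box CANNTG and the homeodomain core TAAT, both searched on both strands.
Isl1: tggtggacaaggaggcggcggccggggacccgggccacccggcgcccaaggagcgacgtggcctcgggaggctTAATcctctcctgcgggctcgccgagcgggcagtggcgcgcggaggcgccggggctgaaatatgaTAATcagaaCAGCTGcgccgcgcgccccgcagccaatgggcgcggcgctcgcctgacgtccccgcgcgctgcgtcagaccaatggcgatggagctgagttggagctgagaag
Isl2: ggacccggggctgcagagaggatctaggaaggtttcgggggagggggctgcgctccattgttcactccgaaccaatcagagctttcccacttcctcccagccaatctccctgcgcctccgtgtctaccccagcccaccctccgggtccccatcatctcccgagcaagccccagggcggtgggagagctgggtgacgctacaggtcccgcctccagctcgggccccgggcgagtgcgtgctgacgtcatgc
Slc18a3: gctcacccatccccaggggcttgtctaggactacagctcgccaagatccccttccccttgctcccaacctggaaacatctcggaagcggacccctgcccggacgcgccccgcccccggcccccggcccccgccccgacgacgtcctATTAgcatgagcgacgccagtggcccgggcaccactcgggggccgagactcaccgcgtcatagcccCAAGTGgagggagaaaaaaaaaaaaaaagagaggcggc
The Isl1 window held 1 CANNTG and 2 TAAT matches, which do not overlap each other, that of Slc18a3 1 of each, and that of Isl2 0 of either. Of 32841 RefSeq promoter windows of this length, 66.2% held a CANNTG and 54.9% a TAAT, so these matches only describe the windows.

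On each array 62.5% to 70.4% of probes were well above background in the Gfp-positive channel and 54.0% to 63.5% in the reference channel. All 8 arrays lie on 1 slide, in 2 rows that each hold 2 rostral and 2 caudal pools. The log2 ratios of any 2 arrays correlated at 0.78 to 0.87 across probes, which are not independent replicates. Markers of the labelled cell type were present: all 13 genes of a dopaminergic list were higher than in the reference, beside 35.0% of all probes tested. Th was at 3.34 (SE 0.03) and Slc6a3 at 5.98 (SE 0.04) on the log2 scale. The list holds Pitx3, whose locus carried the Gfp used for sorting, so its rise is no separate check. What the p-values measure is pool-to-pool spread, with a precision set by how few arrays there are.

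All 8 Gfp-positive pools were first compared with the reference. The 2 Islet genes were lower in the sorted neurons, Isl2 by far the more, and Slc18a3 was lower with a wide spread. Mnx1 was measured in the sorted channel alone, so no size is read for it, and Phox2a, Chat and Tbx20 did not pass the test. Of the 10 probes, 7 were tested, being well above background on at least 4 of 8 arrays in either channel, and 4 had an adjusted p below 0.05 (here, called): 1 was higher and 3 were lower. Mnx1 entered the test through the sorted channel alone and Isl2 through the reference channel, with 2 of 8 pools measured in the sorted one, so the filter favoured a difference for both and their calls support no count. Among all 37894 probes tested 67.7% were called, 35.0% higher and 32.7% lower, so a call in this comparison is the usual case. The median log2 ratio of the 7 was -0.25, that of all probes 0.03. With median centring in place of loess the median of all probes lay at 0.13 and the split of calls was 16424 higher and 9598 lower, against 13257 and 12398 as reported. Since the reference is a single control sample, its own spread is not in the test, and a dye effect, if any, is not separated from a ratio.

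**Figure D1:**
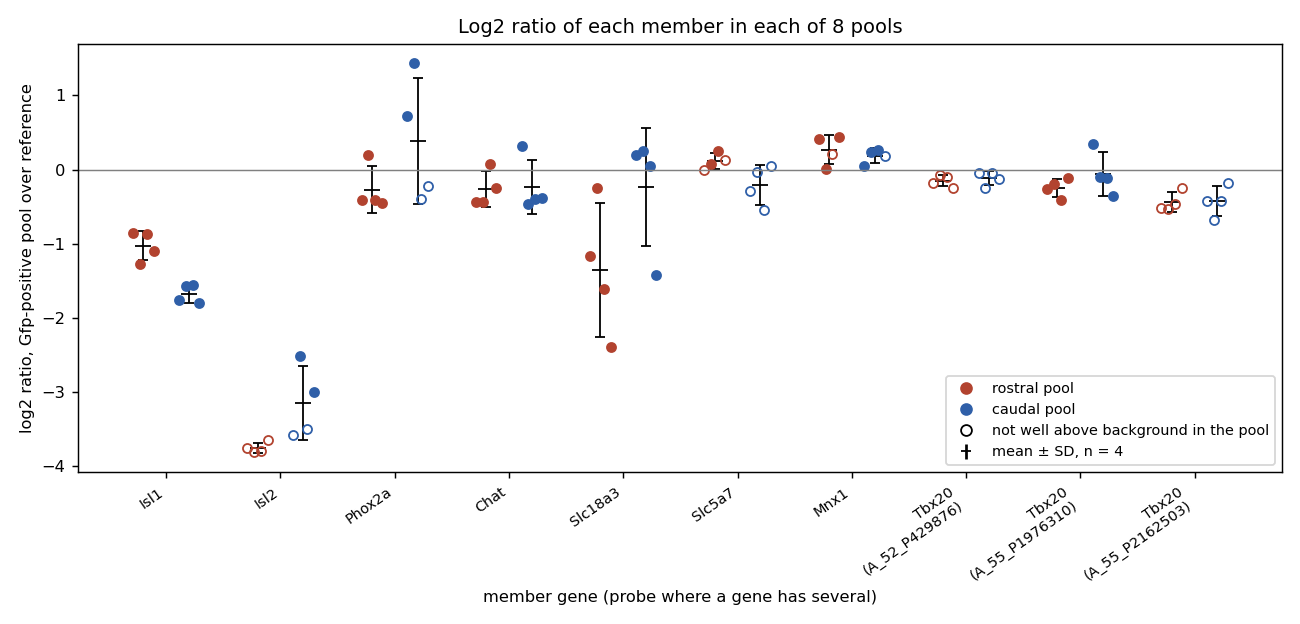
Log2 ratio of each Gfp-positive pool over the Gfp-negative reference (vertical axis) for the 10 member probes, rostral pools left of caudal pools, with the mean and SD of 4 pools as bars. Filled points were well above background in the pool and open points were not. The rostral Isl1 points (-1.27 to -0.86) all lie above the caudal ones (-1.79 to -1.56), and the Slc18a3 points run from -2.40 to 0.25.

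Isl1 had log2 ratios of -0.86, -1.27, -0.87 and -1.10 in rostral pools 1 to 4, and of -1.76, -1.57, -1.56 and -1.79 in caudal pools 1 to 4. Every pool was thus below the reference, and the sorted cells still gave a clear signal: the spots read 2207 to 4582 intensity units over a local background of 70.6 to 74.4. The mean over 8 pools was -1.35 (SE 0.06, limma adjusted p = 4.98e-08), 2.55-fold lower in Gfp-positive cells. Isl1 is the one member printed in 10 spots per array, of which 7 to 10 were used after outlier spots were left out. The SD between these spots was 0.07 to 0.15 within an array, beside an SD between pools of 0.20 in rostral and 0.12 in caudal pools.

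Isl2 lay at -3.75, -3.80, -3.79 and -3.65 in rostral pools 1 to 4, and at -3.57, -2.51, -3.50 and -3.00 in caudal pools 1 to 4. In the reference it passed the background limit on 8 of 8 arrays, at 1019 to 1425 units. The sorted cells passed that limit in only 2 pools, caudal pool 2 with 206.5 units and caudal pool 4 with 152 units, and read 92 to 113 units elsewhere over a background of 66 to 72. The fitted ratio was -3.45 (SE 0.11, adjusted p = 8.8e-09), -5.70 in the scanner software's processed signals (Feature Extraction, no offset added), and -4.39 with normexp at offset 0. Isl2 was not well above background in any rostral pool. There it was at least 12.5-fold lower than in the reference, where the bound sets the reference mean against the higher of the pool's own signal and the lowest signal well above background, after loess and Aquantile, and is open to dye bias.

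Phox2a had log2 ratios of -0.42, 0.20, -0.41 and -0.46 in rostral pools 1 to 4, against 0.73, 1.43, -0.39 and -0.22 in caudal pools 1 to 4. Caudal pools 1 and 2 thus carried more Phox2a signal than the reference, with spots at 277 and 506 units. Caudal pools 3 and 4, at 128 and 119 units, were not well above background. The mean over pools was 0.06 (SE 0.19, adjusted p = 0.802). Its sign depended on the slide row, being 0.48 (adjusted p = 0.0699) within the first row and -0.37 (adjusted p = 0.0172) within the second.

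Mnx1 was at 0.41, 0.01, 0.21 and 0.44 in rostral pools 1 to 4 and at 0.04, 0.24, 0.27 and 0.19 in caudal pools 1 to 4. All 8 ratios lay above 0, and 6 of 8 pools were well above background at 119 to 142 units, close to the limit. The mean was 0.23 (SE 0.06, adjusted p = 0.00804), but on no array was the reference well above background. The filter thus favoured a difference, and no size is read from a reference signal that was not measured. With median centring the ratio was 0.11 (adjusted p = 0.156), and it was 1.33 in the Feature Extraction processed signals.

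The 3 Tbx20 probes differed in what they could measure. Probe A_55_P1976310 was well above background on 8 of 8 arrays in both channels, with ratios of -0.41 to -0.12 in rostral and -0.36 to 0.35 in caudal pools and a mean of -0.15 (SE 0.08, adjusted p = 0.116). Without caudal pool 1 that value was -0.22 (adjusted p = 0.0189). Probe A_52_P429876 was well above background on 0 arrays in either channel. Probe A_55_P2162503 was so on 1 array in the reference and 0 in the pools. The last 2 probes were not tested.

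Slc18a3, of the 3 genes of acetylcholine supply, spread widely between pools. Its ratios were -1.16, -0.25, -1.61 and -2.40 in rostral pools 1 to 4, against 0.19, 0.25, 0.05 and -1.43 in caudal pools 1 to 4. Caudal pools 1 to 3 stood at or slightly above the reference, and caudal pool 4 fell among the rostral ones. The mean was -0.79 (SE 0.25, adjusted p = 0.0177), and it did not pass the test with median centring (-0.46, adjusted p = 0.131) or within the first slide row (-0.24, adjusted p = 0.279). The reference channel varied little, between 10.36 and 10.60 in normalised log2 intensity over the 8 arrays, whereas the sorted channel ran from 7.98 to 10.85.

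**Figure D2:**
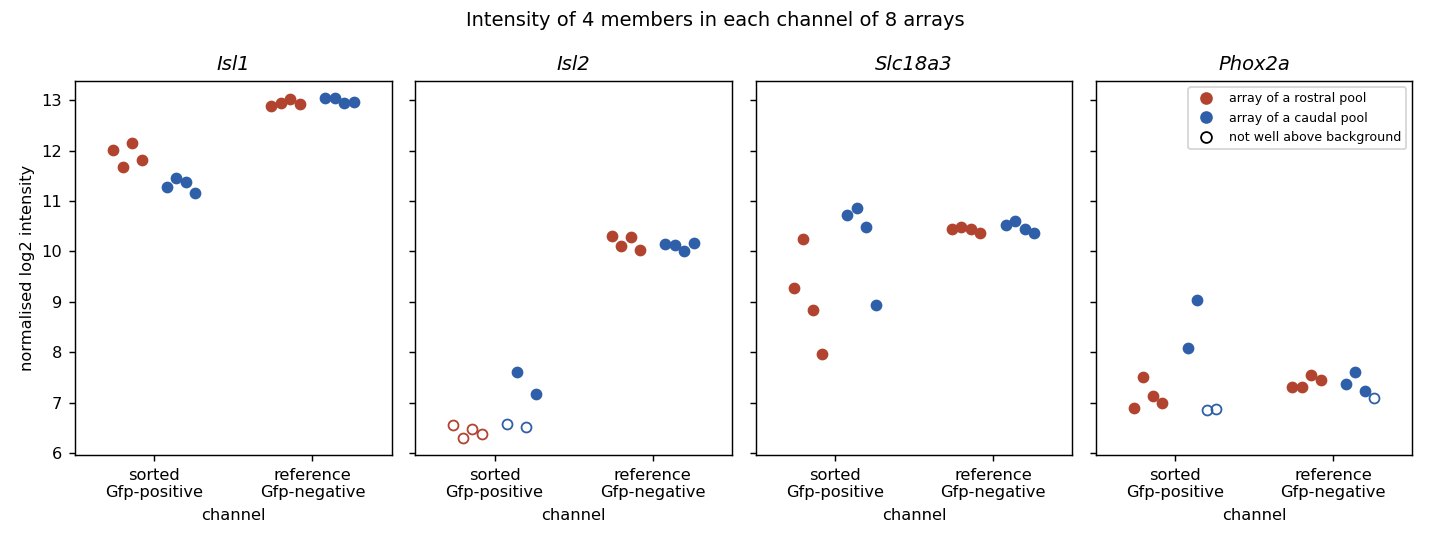
Normalised log2 intensity (vertical axis) of Isl1, Isl2, Slc18a3 and Phox2a in the sorted Gfp-positive and the reference Gfp-negative channel of each array, arrays of rostral pools left of those of caudal pools. Open points were not well above background. The reference of Slc18a3 stays between 10.36 and 10.60 while its sorted channel spans 7.98 to 10.85, and Isl2 in the sorted channel is well above background in 2 caudal pools.

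Chat was dim, although each of the 8 pools passed the background limit. It lay at -0.44, -0.44, 0.08 and -0.24 in rostral pools 1 to 4 and at 0.32, -0.47, -0.40 and -0.38 in caudal pools 1 to 4. The mean of -0.25 (SE 0.10, adjusted p = 0.0513) just missed the threshold. Under 10 of 16 other settings it did not pass either, with an adjusted p of up to 0.209 (-0.26, within the first slide row). It passed without caudal pool 1 (-0.34, adjusted p = 0.00466), without rostral pool 3 (-0.30, adjusted p = 0.0285), with offset 0 (-0.39, adjusted p = 0.0387), with median centring (-0.28, adjusted p = 0.0382), with only probes well above background on all 8 arrays (adjusted p = 0.0451) and with 1 probe per gene (adjusted p = 0.0484).

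The annotated Slc5a7 probe passed the background limit in rostral pools 2 and 3 only and on 0 arrays in the reference, so it was not tested, and no fold is given. A further probe, A_55_P2025690, matches Slc5a7 by its RefSeq accession but is absent from the annotated table, so it is no member by the rule. Its signal passed the background limit in 7 of 8 pools, and in the reference on 8 of 8 arrays. Its mean ratio was -0.50 (SE 0.12, adjusted p = 0.00562), lower in Gfp-positive cells.

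Rostral pools were then compared with caudal ones. Isl1 was higher in rostral pools, and it was the 1 gene called among the 6 member probes tested, those well above background in the sorted channel on at least 4 of 8 arrays. Among all 36852 probes tested 3.35% were called, 1.83% higher and 1.53% lower in rostral pools. The median difference of the 6 was -0.11, that of all probes 0.00. The 4 pools of 1 part all lay on 1 side of the other 4 for Isl1 among the 6, and for 9.71% of all probes tested (4.87% with rostral pools higher, 4.84% with them lower).

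**Figure D3:**
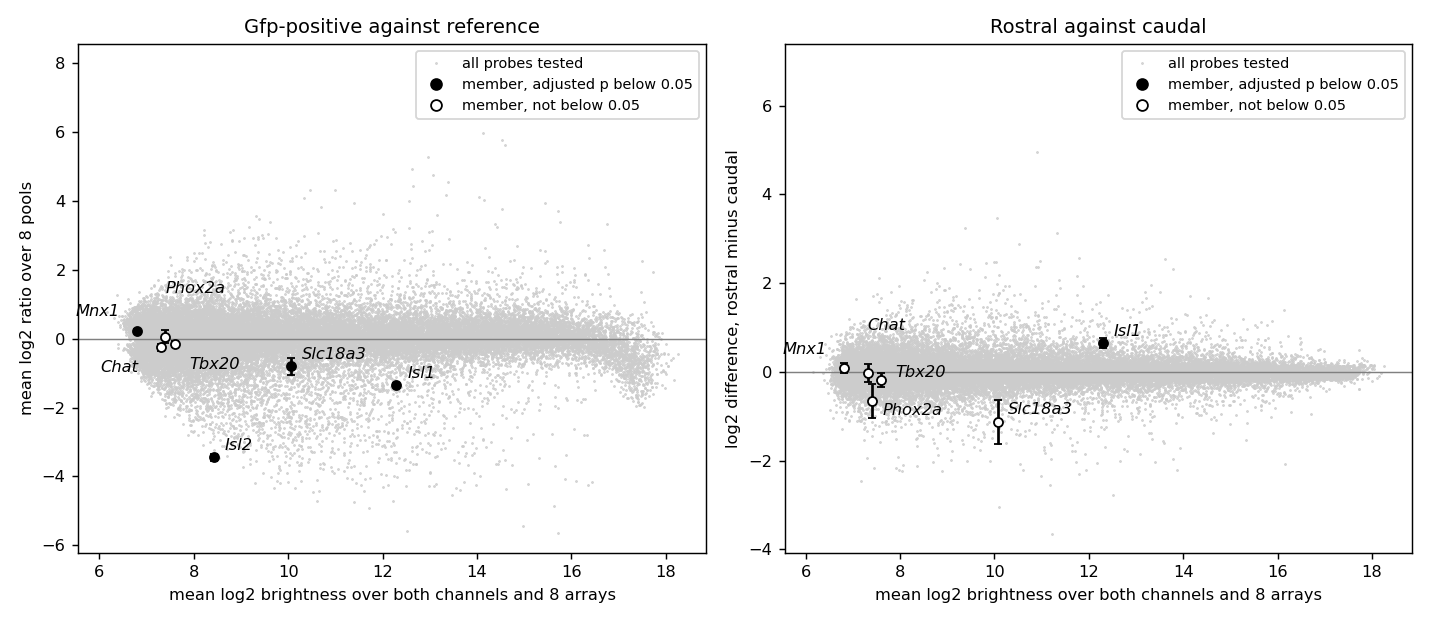
Log2 value against mean log2 brightness for all probes tested (grey), with the members in black and their SE as bars, for Gfp-positive against reference (left, 37894 probes) and rostral against caudal (right, 36852 probes). Filled members have an adjusted p below 0.05. Isl2 at -3.45 is the lowest member on the left, and Isl1 at 0.65 is the one filled member on the right.

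Isl1 averaged -1.03 ± 0.20 in rostral and -1.67 ± 0.12 in caudal pools as log2 ratios (SD, n = 4 each), a difference of 0.65 (SE 0.12, 95% interval 0.39 to 0.91, adjusted p = 0.0188) or 1.56-fold. The difference lay in the sorted channel, 11.91 ± 0.22 in rostral and 11.32 ± 0.13 in caudal pools. The reference channel was 12.94 ± 0.06 on arrays of rostral and 12.99 ± 0.05 on arrays of caudal pools (normalised log2 intensity, SD, n = 4). With the sorted channel alone the difference was 0.59 (adjusted p = 0.0397). It was 0.60 (adjusted p = 0.362) within the first slide row and 0.69 (adjusted p = 0.232) within the second, with 2 pools of each part in a row, where limma called 0 probes of any gene (4126 and 3990 at an unadjusted p below 0.05). The call was lost without rostral pool 3 (0.59, adjusted p = 0.0509), without caudal pool 1 (0.62, adjusted p = 0.0623) or without caudal pool 4 (0.60, adjusted p = 0.0612), while the difference stayed positive in each.

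Markers of hypothalamic and diencephalic cells moved the same way as Isl1. Of 12 listed, 9 were tested, 5 were higher and 0 lower in rostral pools (median 2.31), beside 1.83% higher and 1.53% lower among all probes tested. The summed intensity of the 12 in the sorted channel was 10389 to 15025 in rostral and 6257 to 8801 in caudal pools. Nkx2-1, a homeobox gene of the hypothalamus, differed by 2.31 (SE 0.12, adjusted p = 0.000168), Fezf1, a forebrain zinc finger gene, by 3.23 (SE 0.28) and Pmch, the precursor of melanin-concentrating hormone, by 3.47 (SE 0.34). For Fezf1 and Pmch 4 of 4 rostral but 1 of 4 caudal pools were well above background, so these sizes rest on caudal signals that were mostly not measured. Both are among the 5 called, but the rostral pools alone met the filter. It thus favoured a difference for both, and their calls support no count. Otp was not well above background in any of the 8 pools. All 11 markers tested against the reference were lower in the sorted cells, beside 32.7% of all probes tested. Sim1, well above background in 2 of 8 pools, and Shox2, in 0 of 8, entered through the reference. The filter thus favoured a difference for both, and their calls support no count. The part of the hypothalamic and diencephalic markers in the Isl1 difference was not tested.

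Isl2 was not tested between the parts, because 2 of 8 pools passed the background limit. Its log2 ratios were -3.80 to -3.65 in rostral and -3.57 to -2.51 in caudal pools, but in the sorted channel the parts overlapped (6.55 in rostral pool 1, 6.52 in caudal pool 3, normalised log2 intensity), and no order is read from signals this close to background. Only 2 of 4 caudal pools were measured, so no fold is given between the parts.

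Phox2a averaged -0.27 ± 0.31 in rostral and 0.39 ± 0.85 in caudal pools (SD, n = 4 each), a difference of -0.66 (SE 0.38, 95% interval -1.51 to 0.20, adjusted p = 0.492). The groups overlap, since caudal pools 3 and 4 read like the rostral ones. Within the slide rows the difference was -1.19 and -0.13. Caudal pool 2 held the highest ratio of Phox2a, Isl2 and Slc18a3 alike, and rostral pool 2 the highest rostral one of Phox2a and Slc18a3.

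Slc18a3 averaged -1.35 ± 0.90 in rostral and -0.23 ± 0.80 in caudal pools (SD, n = 4 each). The difference of -1.12 (SE 0.50, 95% interval -2.24 to -0.0026, adjusted p = 0.328) was the largest in size of the 6 tested but did not pass the test, and it ranged from -1.52 to -0.77 over all settings tried, with an adjusted p of 0.0645 to 0.531. It was -0.93 within the first slide row and -1.32 within the second. Across the 8 pools Slc18a3 and Phox2a had a Pearson r of 0.70, and 0.57 after the mean of each part was taken off, whereas Slc18a3 and Chat, its neighbour in the cholinergic locus, had -0.01 and -0.05. These describe 8 arrays that share 1 reference.

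**Figure D4:**
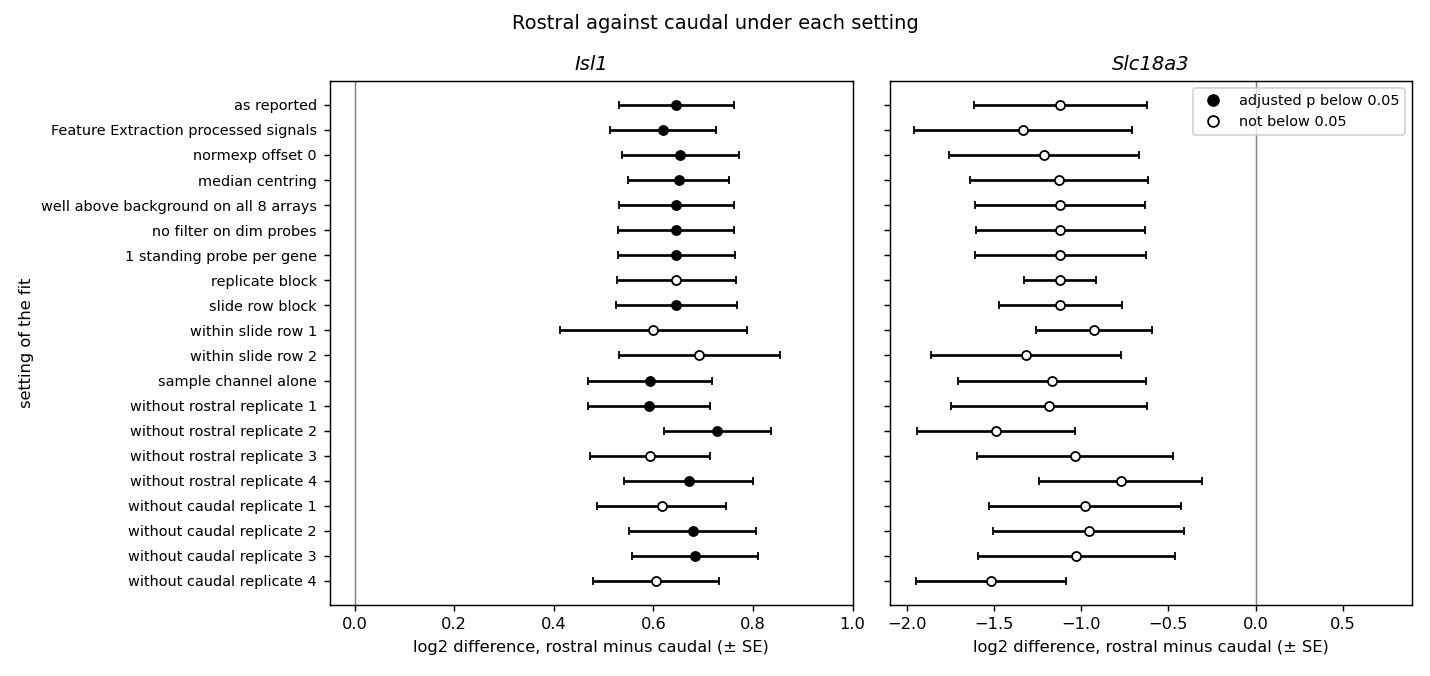
Rostral minus caudal log2 difference (horizontal axis, with its SE) of Isl1 and Slc18a3 as reported and under each other setting of the fit. Isl1 stays between 0.59 and 0.73, filled where the adjusted p is below 0.05, and Slc18a3 between -1.52 and -0.77, never filled.

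Chat, Mnx1 and Tbx20 did not pass the test between the parts. Chat averaged -0.26 ± 0.24 in rostral and -0.23 ± 0.37 in caudal pools, a difference of -0.03 (95% interval -0.48 to 0.42, adjusted p = 0.979). Mnx1 differed by 0.08 (95% interval -0.19 to 0.35, adjusted p = 0.848), and Tbx20 by -0.19 (95% interval -0.55 to 0.17, adjusted p = 0.679). The annotated Slc5a7 probe was at -0.00059 to 0.25 in rostral and -0.55 to 0.04 in caudal pools. These overlap, and only 2 of 4 rostral pools were measured, so no fold is given. The Slc5a7 probe outside the annotated table averaged -0.03 ± 0.32 in rostral and -0.96 ± 0.45 in caudal pools, a difference of 0.93 (SE 0.25, adjusted p = 0.086).

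Other genes of motor neuron development and of acetylcholine handling went in both directions. Of 35 motor neuron genes listed, 33 were tested against the reference, 11 of them higher and 18 lower in sorted cells (median -0.35). Beside this, 35.0% were higher and 32.7% lower among all probes, and 6461 higher and 6858 lower of 18612 genes with 1 probe each. Tbx2, well above background in 0 of 8 pools, entered through the reference. Fgf10, so on 0 reference arrays, entered through the sorted cells. The filter thus favoured a difference for both, and their calls support no count. The smallest p-values were those of Nkx2-2, a homeobox gene of the ventral neural tube, at -2.39 (SE 0.07), Olig2, a motor neuron progenitor gene, at -3.59 (SE 0.11), Lmo4, a LIM-only cofactor gene, at 0.99 (SE 0.03), and Rgs4, a regulator of G protein signalling, at -2.46 (SE 0.09). Between the parts 5 of 32 were higher and 4 lower in rostral pools (median -0.02), beside 3.35% of all probes called: Tubb3, a neuronal tubulin gene, differed by -0.39 (SE 0.04), Nkx6-1, a ventral homeobox gene, by -2.55 (SE 0.32), Nkx2-2 by 1.05 (SE 0.14) and Lmo4 by 0.52 (SE 0.07). Tubb3 and Lmo4 are broadly neuronal.

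Of 29 acetylcholine and cholinergic genes listed, 25 were tested against the reference, 8 higher and 11 lower (median -0.18), beside 67.7% of all probes and 13319 of 18612 genes called either way. Slc10a4, a vesicular transporter gene of cholinergic and monoaminergic neurons, was at 3.93 (SE 0.07), Prima1, which anchors acetylcholinesterase in the membrane, at 2.41 (SE 0.09), and Ache, acetylcholinesterase itself, picked after its values were seen, at 0.36 (SE 0.08). Bche, the other cholinesterase gene of the list, went the other way, at -3.40 (SE 0.24). Slc35d3, an orphan transporter gene that does not handle acetylcholine, was at 3.999 (SE 0.04), and the muscarinic receptor gene Chrm1 was at -1.75 (SE 0.08), with 1 of 8 pools well above background, so that it entered the test through the reference. Between the parts 2 of 24 were higher and 3 lower in rostral pools (median 0.02), beside 1.83% higher and 1.53% lower among all probes. Ngfr, a neurotrophin receptor, differed by -1.38 (SE 0.13), Slc35d3 by -0.94 (SE 0.09), and the regional transcription factor gene Zic4 by 1.88 (SE 0.31). Gbx2, another such gene, was well above background in 4 of 4 rostral and 0 of 4 caudal pools, a bound of at least 2.88-fold higher in the rostral ones. It entered the test through the rostral pools alone, so the filter favoured a difference and its call supports no count. Neither Ache (-0.09, adjusted p = 0.88) nor Slc10a4 (-0.07, adjusted p = 0.899) passed the test between the parts.

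**Figure D5:**
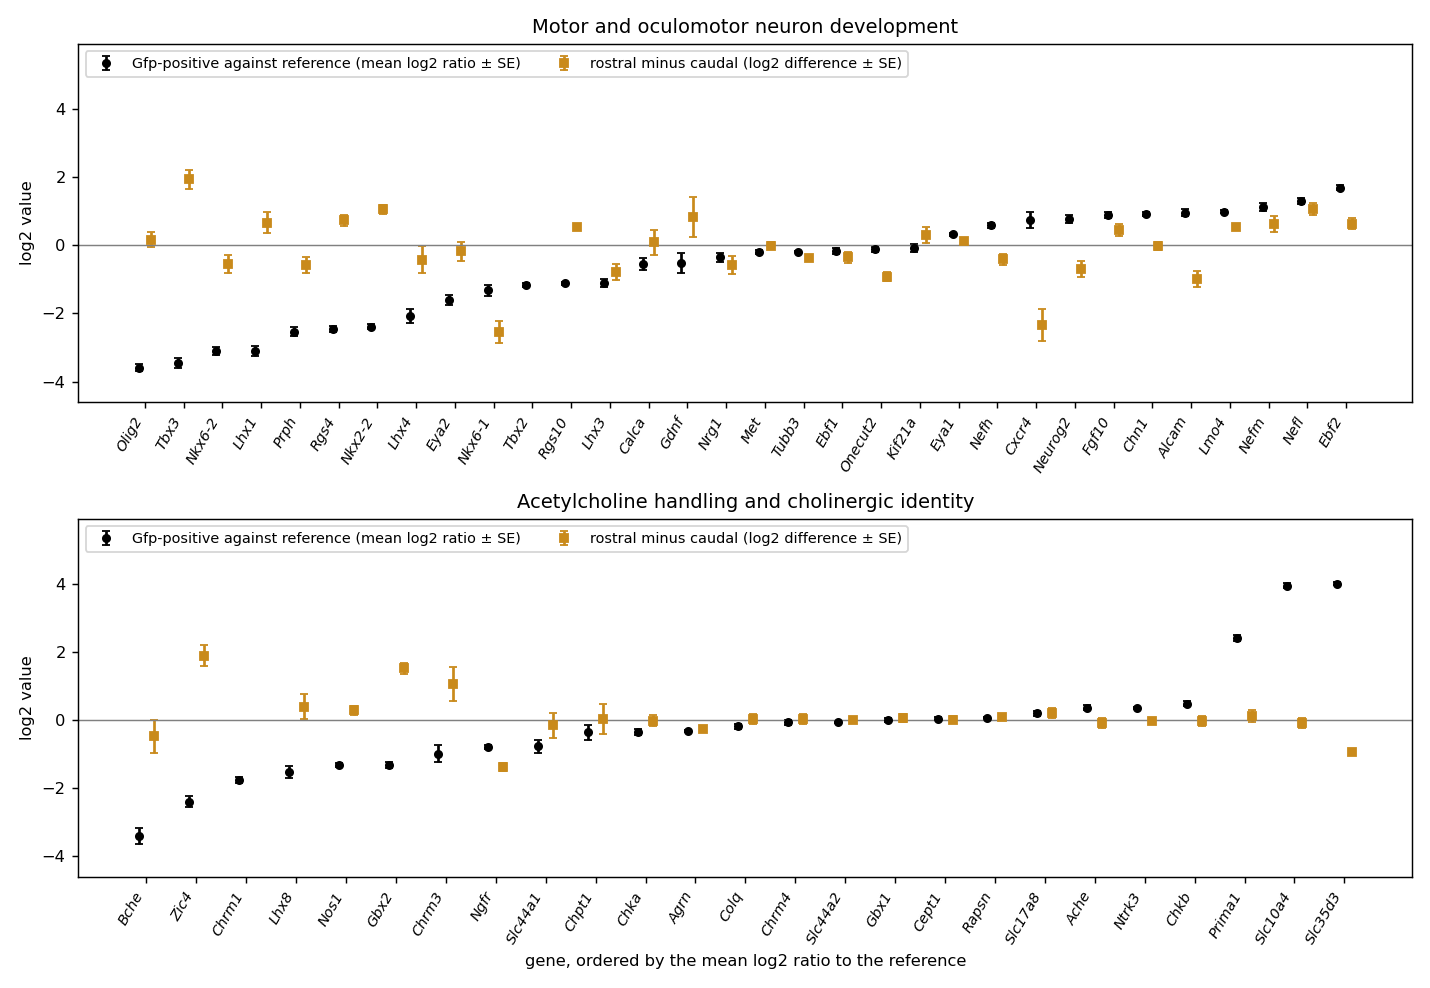
Log2 values with SE of the tested genes, those not reported here left out, of motor neuron development (top) and of acetylcholine handling (bottom), as mean ratio of Gfp-positive cells over the reference (circles) and as rostral minus caudal difference (squares), ordered by the ratio. Slc10a4 at 3.93 and Slc35d3 at 3.999 stand highest, and Olig2 at -3.59 stands lowest of the motor neuron genes.

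As a description of pattern, the 3 named genes whose log2 ratios ran most like each member over the 8 pools were taken from 18149 genes. For Isl1 they were Slc25a13, Lrfn2 and Bend5 (Pearson r of 0.98 each), and 194 genes exceeded an r of 0.9. For Phox2a they were Hmcn1 (0.98), Glod4 (0.98) and Polr1e (0.96), for Slc18a3 Otud5 (0.98), Adcy4 (0.97) and Lrrc18 (0.96), and for Chat Fut1 (0.97), Arl6ip4 (0.96) and 5330406M23Rik (0.96). For Mnx1 they were Morn5 (0.95), Gpr75 (0.94) and Gm9258 (0.93), and for Tbx20 Dmrtc1a (0.95), Stoml1 (0.94) and Psca (0.94). For these 5 members only 16 to 19 genes exceeded that r.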

How the data were processed

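Gene expression was measured in 8 pools, 4 rostral and 4 caudal. The authors deposited scanner files with raw median spot and local background intensities, processed intensities and spot marks of 0 or 1, per the file headers the output of Feature Extraction (Agilent, version 10.7.3.1). The submitters' processing notes also name RMA without saying where it was used. The 8 value columns of the deposited annotated table match no sample label and were not used. The probe sequences and the array build were not used here.

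In R 4.3.3 with limma 3.58.1, background was corrected by normexp (offset 50) and arrays were normalized by loess, control and outlier spots having weight 0. Ratios are log2 of Cy3 over Cy5, averaged over the spots of a probe. limma (lmFit, eBayes with a trend over brightness) was run on all probes that passed the stated background limit, and p-values, all 2-sided, were adjusted by Benjamini-Hochberg over them. A probe was called at an adjusted p below 0.05. The fit was tested on simulated data. All 10 member probes are named, with up to 4 genes per list by smallest p. Ache, Bche and the LIM genes of other lists are named besides, as are genes whose background limit or entry to the test is described. Genes left out of the text and plots are not reported here. A list gene stands by its brightest probe, named by accession or, failing that, by the annotated table. The members and the 12 lists were chosen with earlier results of these data known. The fit ran over probes, and 1 probe per gene was an alternative.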

Additional observations from a re-analysis of the deposited data

Results flagged for a closer look

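In 3 of 20 sets of 4 pools 1 pool lay far from the other 3 by Dixon's test at the 95% level, which chance alone gives in about 1 of 20. Slc18a3 lay at -1.43 in caudal pool 4, against 0.05 to 0.25 in the other caudal pools. Phox2a lay at 0.20 in rostral pool 2, against -0.46 to -0.41 in the other rostral pools. Chat lay at 0.32 in caudal pool 1, against -0.47 to -0.38 in the other caudal pools. Each of the 3 values comes from 1 spot on 1 array.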

How the results depend on the processing

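Isl1 and Isl2 stayed lower than the reference under all 16 other settings run for each, at -1.38 to -1.0003 and -5.70 to -3.28. The cause of the changes named here was not tested. Chat changed sign between the parts in the Feature Extraction processed signals (0.078), within the second slide row (0.31) and without single pools (-0.14 to 0.16). Phox2a changed sign against the reference in those signals (-0.088), with offset 0 (-0.012), within the second row (-0.37) and without single pools (-0.12 to 0.19). With 1 probe per gene, 13319 genes were called against the reference. Within the first row 2 members were called there, both lower. Between the parts, without single pools limma called 647 to 1071 probes and 0 or 1 member, with 815, 763, 647, 818 and 648 probes without rostral pool 3, rostral pool 4, caudal pool 1, caudal pool 3 and caudal pool 4. Within either row it called 0 probes and 0 members, with 3 and 1 members at an unadjusted p below 0.05. The replicate numbers showed no pairing across all probes: same-numbered pools correlated at -0.02 to 0.03 in their deviations, and 0 of 4 rostral pools correlated best with its own number. These correlations do not settle whether the pools were paired. With the number as a block, limma called 605 probes and 0 members (3 at an unadjusted p below 0.05), with Isl1 at 0.65 (adjusted p = 0.0647) and Slc18a3 at -1.12 (adjusted p = 0.0645). The block lowered the SE of Slc18a3 from 0.50 to 0.21 and that of Phox2a from 0.38 to 0.24. It raised the SE of Isl1, Chat, Mnx1 and Tbx20. Mnx1 was not called within the first row (0.18, adjusted p = 0.206). Signals near background limit Isl2, Mnx1, Phox2a, Slc5a7 and 2 Tbx20 probes.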

Other observations

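On a list of 9 other LIM and LIM-binding genes, 7 were lower and 0 higher than the reference (median -1.11). Among all probes 32.7% were lower and 35.0% higher. The lower ones included Lhx2 (-3.33), Lmo1 (-3.91), Lhx5 (-3.40) and Lhx9 (-3.29). LIM genes placed on the other lists went both ways. Lmx1a (3.39), Lmo4 (0.99) and Lmx1b (0.63) were higher, and Lhx1 (-3.10), Lhx4 (-2.08), Lhx8 (-1.52) and Lhx3 (-1.11) were lower. Between the parts Lhx2 (-1.73, SE 0.17) and Lhx9 (-1.60, SE 0.20) were lower in rostral pools, and the LIM-binding cofactor gene Ldb2 (1.70, SE 0.23) and Lmo3 (0.73, SE 0.12) were higher.

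Markers of other cells, as genes called higher and lower than the reference among those tested, were 0 and 5 of 6 for serotonergic and noradrenergic, 1 and 8 of 10 for GABAergic, 2 and 5 of 7 for glutamatergic and red nucleus, 0 and 6 of 6 for sensory and peripheral neurons, 0 and 9 of 9 for radial glia and progenitors, 0 and 10 of 11 for endothelial, pericyte and blood, and 1 and 6 of 8 for muscle and mesenchyme. Among all probes 35.0% were higher and 32.7% lower. Pou4f3 (glutamatergic), Rgs5 (pericyte) and Prrx1 (mesenchyme) were well above background in 3, 0 and 2 of 8 pools and entered through the reference. The filter thus favoured a difference for each, and their calls support no count. Between the parts the same lists had 0 higher and 1 lower of 6, 3 and 1 of 10, 1 and 1 of 6, 1 and 1 of 6, 0 and 1 of 9, 0 and 0 of 10, and 0 and 0 of 7 in rostral pools. Among all probes tested between the parts, 1.83% were higher and 1.53% lower in rostral pools. Of the 3 GABAergic genes higher there, 1 entered the test through rostral pools alone, so the filter favoured a difference for it. The dopaminergic list had 0 higher and 4 lower of 13: En2 (-0.90), Slc18a2 (-0.56), En1 (-0.78) and Gch1 (-0.41).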
